A study of Homo sapiens with 8 samples.

Results

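Cells destroy messenger RNAs that ribosomes cannot read properly, and the 35 genes described here encode the machinery that does it. They were taken by name from the deposited table, older names allowed, and all 35 were found among its 58233 genes. They fall by role into 9 core factors of nonsense-mediated decay (NMD), 6 exon junction genes, 5 nonstop decay genes, 9 subunits of the exosome core, 3 exosome nucleases, and 3 genes of decapping and 5′-3′ decay. The rule that selects them is by name and uses no measured value, although the set was chosen with earlier results of these data known.

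The question behind this set comes from the gene APBB1, also called Fe65, which has an annotated transcript without a stop codon. RNA-seq was made from MCF10A-Hras cells, a non-tumorigenic human breast epithelial line that carries the H-Ras oncogene in every sample. The control cells were compared with RBM6-KO1 cells, which are 1 clone in which a pair of guide RNAs directed a nickase Cas9 to exon 3 of RBM6, an RNA-binding splicing factor. Each genotype was sequenced untreated and 12 h after 5 Gy of ionizing radiation (IR) from an X-ray source, so that the 8 libraries form 4 groups of 2, here called replicates A and B. The study's methods call them biological replicates, but neither they nor the labels say how the cultures were kept apart. Each p-value therefore sets a difference against a spread between libraries that may be partly technical. That spread was estimated for each gene partly from the other genes tested, since 2 libraries a group hold little information. Since KO1 is a single clone, loss of RBM6 and other properties of that clone cannot be told apart.

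The libraries held between 15355281 and 29832009 counts on genes. The members had between 119 and 4829 counts in a library, so that none was near 0. Values below are normalized CPM, counts per 1000000 of a library size that was adjusted by TMM normalization. A change is a log2 fold change with its standard error (SE) from the quasi-likelihood test of edgeR. A gene passed the test at an adjusted p under 0.05 over all genes tested. In bulk RNA, fewer cells of a type and less RNA per cell cannot be told apart, and CPM are shares of a library, not amounts per cell. All 10 epithelial markers were detected, with KRT5 between 1057 and 1623 CPM, whereas CDH1 did not exceed 49.5 CPM and EPCAM did not exceed 26.7 CPM. The 10 epithelial markers summed to between 13239 and 16229 CPM in untreated control cells, between 12128 and 12177 CPM in untreated KO1 cells, between 12075 and 12711 CPM in irradiated control cells and between 9888 and 10638 CPM in irradiated KO1 cells. Of the 10 markers of other cell types, CD3E was at 0 in every library and PTPRC had at most 2 counts, whereas CD14 reached 18.9 CPM, COL1A1 14.4 CPM and PECAM1 6.33 CPM. That list summed to between 25.9 and 36.2 CPM in untreated control, 16.8 and 18.6 CPM in untreated KO1, 26.9 and 27.5 CPM in irradiated control and 15.02 and 16.2 CPM in irradiated KO1 cells. The part of these marker shifts in the results below was not tested.

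As background, a ribosome that reaches the end of an mRNA without meeting a stop codon stalls there. PELO and its partner HBS1L, relatives of the termination factors, recognize such a stalled ribosome and help to split it. The SKI complex (SKIC2, SKIC3 and SKIC8) then unwinds the mRNA and feeds it into the cytoplasmic exosome, which degrades it from the 3′ end. NMD instead removes mRNAs whose stop codon lies too early, often upstream of an exon junction complex, through the helicase UPF1, its partners and the SMG proteins. After decapping by DCP2, XRN1 degrades mRNAs from the 5′ end.

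The nonstop transcript of APBB1 and its coding transcript differ in where the last intron ends. APBB1 lies on the minus strand of chromosome 11 at 6395125 to 6419414 (hg38), and in GENCODE release 44 exon 15 starts at either of 2 acceptor sites that are 422 bases apart. The exon is 577 bases long in the coding transcript and 155 bases long in the nonstop transcript. These sequences of the minus strand are shown because they define the nonstop transcript that raised the question. In the acceptors the first 20 bases, in lower case, are intron for the transcript named and the last 10, in capitals, are its exon. In the third sequence the capitals mark the stop codon.
Acceptor of the coding transcript, chr11:6395692-6395721: tgccctgcttgcctccgcagCTTCGCTACC
Acceptor of the nonstop transcript, chr11:6395270-6395299: tccatccccatgtgtttcagGTGGAACAGG
Stop codon of the coding transcript, chr11:6395522-6395551: ggggcccataccccaTGAagaagcccccac
The stop codon at 6395534 to 6395536 lies between both acceptors, so the shorter exon does not contain it. The table holds 1 count per gene, so the coding and nonstop transcripts of APBB1 could not be counted apart.

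RBM6 itself remained measurable as RNA, with 66.9 and 68.8 CPM in untreated control cells and 61.5 and 63.2 CPM in untreated KO1 cells. The difference was -0.14 (SE 0.15, edgeR adjusted p = 0.712), and after IR, with 54.5 and 48.9 CPM against 44.01 and 33.9 CPM, it was -0.40 (SE 0.20, adjusted p = 0.535). A count over the whole gene does not report on the edited exon, so it does not check the knockout. APBB1 had 93 and 120 counts in untreated control cells but 4 and 7 in untreated KO1 cells. After IR it had 104 and 171 counts in control cells and 4 and 4 in KO1 cells. The groups did not overlap, and the difference between genotypes was -4.14 (SE 0.42) before and -4.87 (SE 0.39) after IR.

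None of the 5 nonstop decay genes passed the test between genotypes. Their differences ran from -0.09 to 0.32 in untreated and from -0.03 to 0.31 in irradiated cells. PELO (ENSG00000152684, chromosome 5, 52787916 to 52804044) had 43.8 and 45.8 CPM in untreated control cells and 42.7 and 42.2 CPM in untreated KO1 cells. In irradiated cells it had 43.4 and 41.6 CPM in control and 44.9 and 42.7 CPM in KO1. The 8 values thus span a narrow range. The difference between KO1 and control was -0.09 (95% interval -0.42 to 0.24) before and 0.05 (-0.34 to 0.44) after IR. These intervals leave room for changes of up to about 1.36-fold upward and 0.746-fold downward, and larger ones lie outside them. A stretch of PELO is shared with other genes: 13.8% of its exonic bases are also exonic in ITGA1 on the same strand or in PELO-AS1 on the opposite strand.

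HBS1L (ENSG00000112339, chromosome 6, 134960378 to 135103056), the GTPase that partners PELO, had 47.1 and 39.4 CPM in untreated control cells and 47.5 and 42.5 CPM in untreated KO1 cells. Its values after IR were 58.0 and 63.3 CPM in control and 60.5 and 69.9 CPM in KO1 cells. All 4 irradiated libraries lay above all 4 untreated ones, whereas the genotypes overlapped. The change with IR was 0.48 (SE 0.18, edgeR adjusted p = 0.129) in control and 0.52 (SE 0.16, adjusted p = 0.0777) in KO1 cells, so neither passed the test. In KO1 cells HBS1L did pass with DESeq2 (0.55, adjusted p = 0.0450) and with edgeR without a filter (0.55, adjusted p = 0.0391). Between genotypes HBS1L differed by 0.04 (95% interval -0.31 to 0.40) untreated and by 0.11 (-0.28 to 0.50) after IR.

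The SKI genes also did not pass the test between genotypes. SKIC2, the helicase of the complex, differed by -0.03 in untreated and in irradiated cells, and SKIC8, a scaffold subunit, by 0.06 and 0.11. SKIC3, the other scaffold, differed by 0.32 (SE 0.22) and 0.31 (SE 0.23), and its untreated control libraries were among the least alike, with 67.4 and 40.0 CPM. In untreated cells SKIC3 passed the test as higher in KO1 without replicate A of the control cells (0.74, edgeR adjusted p = 0.0373) and without replicate B of the KO1 cells (0.57, adjusted p = 0.0264). In the edgeR test on all libraries of a comparison, none of the SKI genes passed with IR either. SKIC3 did pass with a replicate block whose letters were crossed, a fit chosen after the data were examined. It then changed by 0.40 in control and 0.37 in KO1 cells. Its change with IR in control cells was 0.39 (SE 0.26) with all libraries and 0.67 without replicate A of irradiated control cells.

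**Figure D1:**
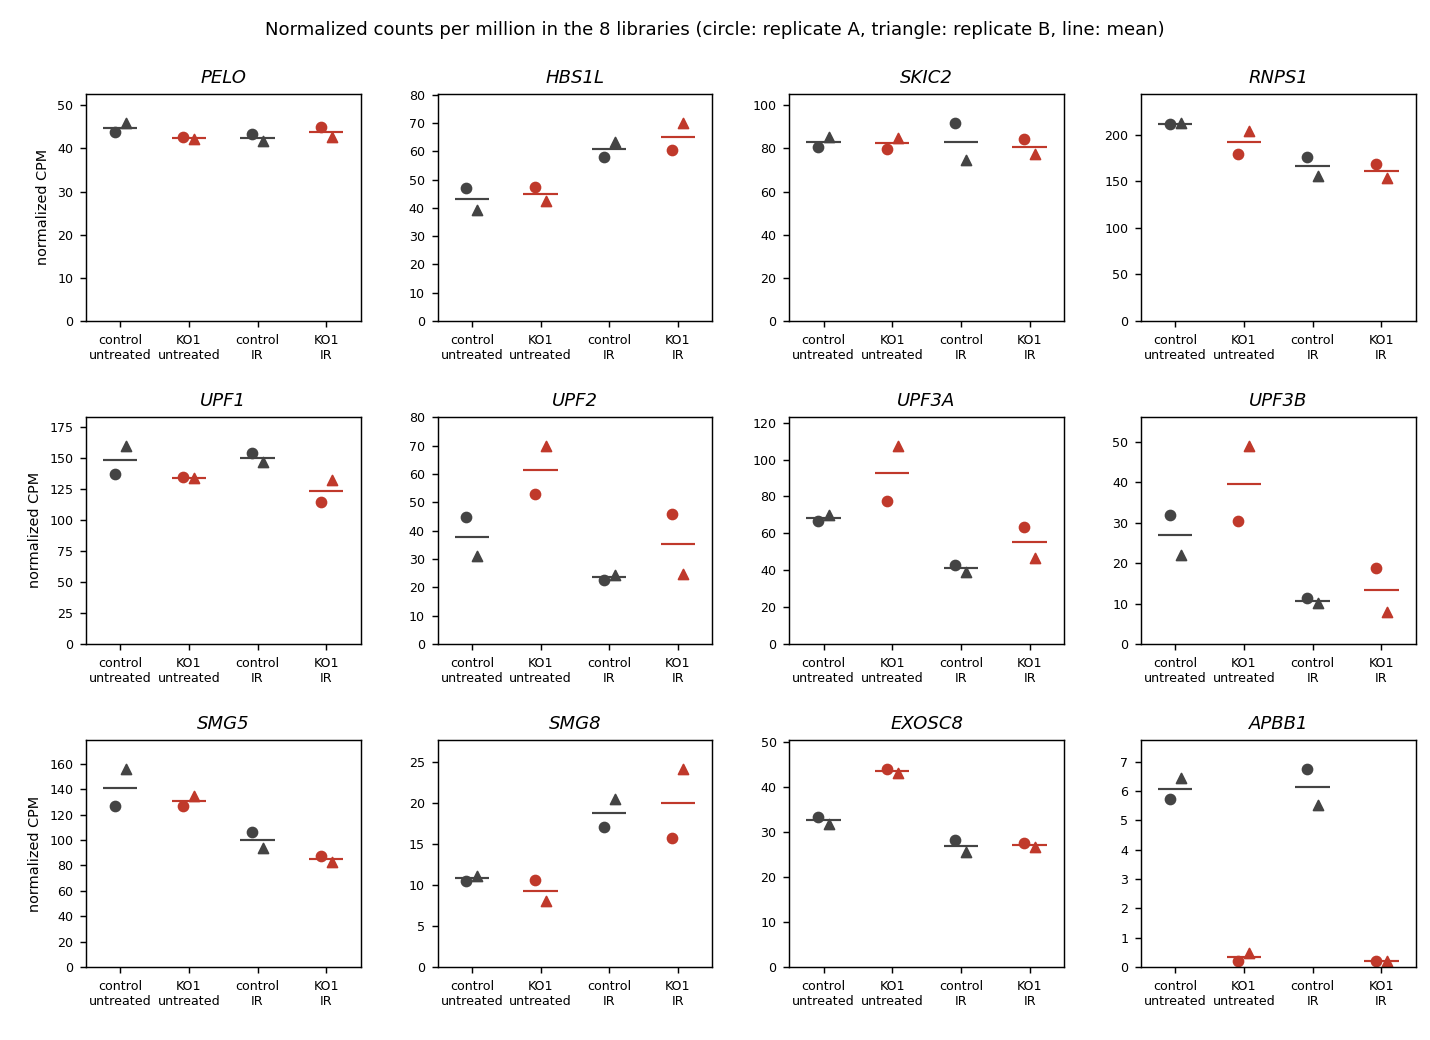
Normalized CPM (vertical axes from 0) in each of the 8 libraries for 11 of the members and for APBB1, with circles for replicate A, triangles for replicate B and a line at the mean of each group. PELO stays between 41.6 and 45.8 CPM in all libraries, UPF3B is lower after IR in both genotypes, and APBB1 is near 0 in all 4 KO1 libraries.

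Comparison of untreated KO1 with untreated control cells showed 1 member that rose, UPF2, and none that fell. UPF2 is the adaptor that joins UPF1 to UPF3A or UPF3B. The other 34 members did not pass the test, and no member reached a 2-fold change. The 35 changes ran from -0.38 to 0.68 with a median of 0.02, against a median of 0.01 over all genes tested, and 20 were above and 15 below 0. Of the 15556 genes tested, 6.12% passed the test, 371 as higher and 581 as lower, and 3.12% also changed at least 2-fold.

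UPF2 (ENSG00000151461, chromosome 10, 11920022 to 12043170) had 44.9 and 31.1 CPM in untreated control cells and 53.0 and 69.8 CPM in untreated KO1 cells. The groups did not overlap, but each had replicates that differed. The change was 0.68 (SE 0.19, 95% interval 0.28 to 1.08, edgeR adjusted p = 0.0395), or 1.60-fold. It did not pass when all 8 libraries were fitted together (0.69, adjusted p = 0.258). Nor did it pass without replicate B of the control cells (0.45, adjusted p = 0.501) or without replicate B of the KO1 cells (0.48, adjusted p = 0.132). After IR, UPF2 had 22.8 and 24.4 CPM in control and 45.9 and 24.8 CPM in KO1 cells, a difference of 0.59 (SE 0.30, adjusted p = 0.553).

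Both UPF3 paralogs, which bridge UPF2 to the exon junction complex, had higher mean values in untreated KO1 cells, although neither passed the test. UPF3A (ENSG00000169062, chromosome 13, 114281601 to 114305817) had 66.7 and 69.7 CPM in control and 77.7 and 107 CPM in KO1 cells, a difference of 0.42 (SE 0.16, edgeR adjusted p = 0.153). UPF3B (ENSG00000125351, chromosome X, 119834022 to 119852998) had 31.9 and 22.1 CPM in control and 30.5 and 48.9 CPM in KO1 cells, a difference of 0.54 (SE 0.22, adjusted p = 0.188). The UPF3B groups overlapped. UPF3A and UPF3B share 55.0% of aligned coding bases and no identical run longer than 16 bases, against reads of 150 bases.

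UPF1 (ENSG00000005007, chromosome 19, 18831959 to 18868230), the helicase at the centre of NMD, had 138 and 160 CPM in untreated control cells and 135 and 134 CPM in untreated KO1 cells. In irradiated cells it had 154 and 147 CPM in control and 115 and 132 CPM in KO1. KO1 values were below control values in both conditions without overlap, by -0.16 (SE 0.14, edgeR adjusted p = 0.636) and -0.28 (SE 0.15, adjusted p = 0.608), so that neither difference passed the test. With an offset for GC content and length the untreated difference turned to 0.03 and the irradiated one was -0.08. The remaining NMD core factors, the kinase SMG1, its regulators SMG8 and SMG9, and the effectors SMG5 and SMG6, lay between -0.22 and 0.28 in untreated cells.

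The exon junction genes gave 0 of 6 past the test. RNPS1 (ENSG00000205937, chromosome 16, 2253116 to 2268397), an accessory factor of the junction complex, had 211 and 212 CPM in untreated control cells and 180 and 203.4 CPM in untreated KO1 cells. After IR it had 176 and 155 CPM in control and 169 and 153 CPM in KO1 cells. It differed between genotypes by -0.16 (95% interval -0.45 to 0.13) before and -0.04 (-0.40 to 0.33) after IR. EIF4A3, RBM8A and CASC3, other subunits of the complex, each lay within 0.1 of 0 in both conditions. For RBM8A, 31.3% of exonic bases are also exonic in other annotated genes.

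MAGOH and MAGOHB encode near-identical proteins that pair with RBM8A, and reads of one may be counted on the other. Their coding sequences matched at 85.5% of aligned bases, and the longest identical run was 38 bases, shorter than a read of 150 bases. The last 72 coding bases of both, read from the hg38 transcripts, are shown because they hold that run, and the capitals mark the 10 bases at which they differ.
MAGOH, coding bases 370 to 441: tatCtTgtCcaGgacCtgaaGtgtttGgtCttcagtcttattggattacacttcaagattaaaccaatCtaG
MAGOHB, coding bases 376 to 447: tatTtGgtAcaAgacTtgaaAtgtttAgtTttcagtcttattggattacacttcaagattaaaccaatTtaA
MAGOH (ENSG00000162385, chromosome 1, 53226900 to 53238518) had 23.3 and 24.2 CPM in untreated control and 24.8 and 25.9 CPM in untreated KO1 cells, a difference of 0.08 (SE 0.18). MAGOHB (ENSG00000111196, chromosome 12, 10604193 to 10613609) had 12.7 and 12.5 CPM in control and 16.6 and 20.1 CPM in KO1 cells, a difference of 0.52 (SE 0.20, edgeR adjusted p = 0.157). In irradiated cells MAGOH had 24.9 and 17.8 CPM in control and 20.8 and 17.0 CPM in KO1. MAGOHB then had 14.6 and 10.8 CPM in control and 15.1 and 13.4 CPM in KO1. Neither paralog passed the test in any comparison.

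In the exosome, a ring of subunits that threads RNA to its nucleases, 0 of 9 core genes and 0 of 3 nucleases passed the test between untreated genotypes. EXOSC8 (ENSG00000120699, chromosome 13, 36998816 to 37025881) had 33.3 and 31.8 CPM in control and 43.9 and 43.1 CPM in KO1 cells, a difference of 0.41 (SE 0.16, edgeR adjusted p = 0.181). EXOSC4 (ENSG00000178896, chromosome 8, 144078648 to 144080648) had the lowest change, -0.38 (SE 0.19, adjusted p = 0.306), with 52.4 and 59.4 CPM in control and 33.2 and 53.7 CPM in KO1 cells. EXOSC7 (ENSG00000075914, chromosome 3, 44975241 to 45036066) had 53.8 and 60.8 CPM in control and 42.1 and 58.2 CPM in KO1 cells, a difference of -0.21 (SE 0.17). EXOSC4 and EXOSC7 overlapped between the groups. Of the nucleases, DIS3 differed by 0.41 (SE 0.17, adjusted p = 0.209), its cytoplasmic paralog DIS3L by -0.05 and the nuclear EXOSC10 by -0.05. For EXOSC10, 39.1% of exonic bases are also exonic in genes on the opposite strand. DCP2, the decapping enzyme, differed by 0.41 (SE 0.19, adjusted p = 0.261), its activator DCP1A by 0.19 and the exonuclease XRN1 by 0.17.

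After IR, 0 of the 35 members passed the test between KO1 and control cells with edgeR, 0 had an unadjusted p under 0.05, and with DESeq2 0 passed and 1 had an unadjusted p under 0.05. Of the 15587 genes tested, 1.21% passed and 1.17% also changed at least 2-fold. An unadjusted p under 0.05 was found for 1731 of them with edgeR and for 1368 of 30123 genes with DESeq2. The members ran from -0.42 to 0.59 with a median of 0.05, against 0.02 over all genes, with 19 above and 16 below 0. The lowest was SMG6 (ENSG00000070366, chromosome 17, 2059839 to 2303785), an endonuclease of NMD. It had 21.9 and 23.4 CPM in irradiated control and 14.4 and 19.2 CPM in irradiated KO1 cells, a difference of -0.42 (SE 0.22, edgeR adjusted p = 0.559). UPF3A had 42.9 and 39.1 CPM in control and 63.5 and 46.9 CPM in KO1 cells, a difference of 0.44 (SE 0.20, adjusted p = 0.502).

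**Figure D2:**
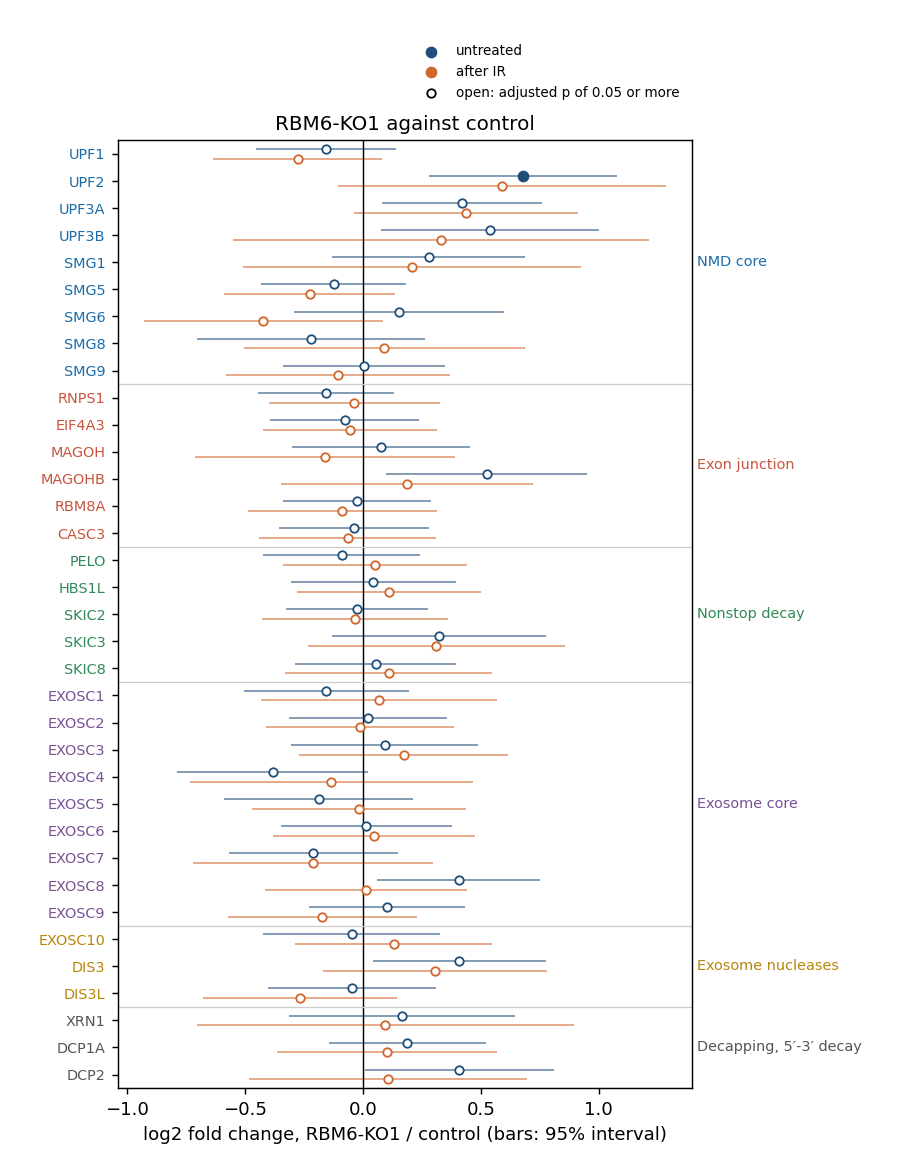
Log2 fold change of RBM6-KO1 over control cells for the 35 members, grouped by role, in untreated cells (blue) and after IR (orange), with bars for 95% intervals and filled points for an adjusted p under 0.05. UPF2 in untreated cells, at 0.68, is the only filled point, and the 5 nonstop decay genes all have intervals that include 0.

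The changes between genotypes were related to base composition. Across the 35 genes, the change in untreated cells and the GC content of the longest transcript had a Spearman correlation of -0.70, against -0.29 over 15444 tested genes with an annotated transcript. In irradiated cells the values were -0.56 for the members and -0.31 for 15484 genes. Genes within libraries are not independent, and the points share the same libraries, so these are descriptions. UPF2 has a GC content of 40.3%, UPF3B of 41.3%, UPF3A of 41.8% and MAGOHB of 34.6%, whereas UPF1 has 60.4% and EXOSC4 57.1%. Between the 2 untreated control libraries alone, the difference of replicate B from A correlated with GC content over the members at 0.62, and in the other groups at 0.07 (untreated KO1), -0.24 (irradiated control) and -0.02 (irradiated KO1). With an offset for GC content and length, UPF2 changed by 0.59 in untreated cells (edgeR adjusted p = 0.0419). With that offset it was again the single member past the test in untreated cells, while 10 members changed sign in untreated and 11 in irradiated cells, none of which had passed.

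IR lowered 2 members in control cells, UPF3B and UPF3A, and raised none. Of the 15412 genes tested, 2.81% passed as higher and 2.91% as lower, and 3.59% passed with at least a 2-fold change, a rule that UPF3B alone of the members met. The members ran from -1.34 to 0.79 with a median of -0.14, against 0.02 over all genes, and 22 of 35 were below 0. The count rested on single libraries. Leaving out untreated control library A gave 0 members, leaving out untreated control library B gave 1, and leaving out irradiated control library A gave 14. With an offset for GC content and length it was 9.

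In KO1 cells IR lowered 3 members, UPF3B, EXOSC8 and SMG5, and raised 1, SMG8. Here 2.44% of the 15598 genes tested passed as higher and 3.23% as lower, and 3.11% passed with at least a 2-fold change, as did UPF3B and SMG8. The members ran from -1.58 to 1.07 with a median of -0.13, against -0.01 over all genes, and 25 of 35 were below 0. The count was 1 without replicate B of untreated or of irradiated KO1 cells and 9 without replicate A of irradiated KO1 cells, and with the offset for GC content and length it was 10. The untreated libraries of each genotype also entered the comparison of genotypes above.

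UPF3B had the lowest change of the members in both genotypes. Its values went from 31.9 and 22.1 CPM to 11.3 and 10.1 CPM in control cells, and from 30.5 and 48.9 CPM to 18.7 and 8.03 CPM in KO1 cells. All 4 irradiated libraries lay below all 4 untreated ones. In control cells the change was -1.34 (SE 0.24, edgeR adjusted p = 0.0130), a level 2.54-fold lower, which did not pass without replicate A of untreated control cells (-1.07, adjusted p = 0.0814) or with all 8 libraries fitted together (adjusted p = 0.0645). In KO1 cells it was -1.58 (SE 0.36, adjusted p = 0.0409), a level 2.99-fold lower. It still passed without any 1 of the KO1 libraries, with changes from -2.30 to -1.08. The irradiated KO1 replicates differed by 1.22 on the log2 scale, the widest gap of any member in that group.

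UPF3A went from 66.7 and 69.7 CPM to 42.9 and 39.1 CPM in control cells, a change of -0.74 (SE 0.17, edgeR adjusted p = 0.0316). In KO1 cells it went from 77.7 and 107 CPM to 63.5 and 46.9 CPM, a change of -0.76 (SE 0.21, adjusted p = 0.0577). UPF3A did pass there with DESeq2 (-0.73, adjusted p = 0.0145) and in edgeR with the offset for GC content and length (-0.91, adjusted p = 0.0216). The irradiated groups lay below the untreated groups in both genotypes. The call in control cells did not hold without replicate A (-0.79, adjusted p = 0.154) or without replicate B (-0.71, adjusted p = 0.312) of untreated control cells, nor with all 8 libraries in 1 fit (adjusted p = 0.0594). UPF2, their partner, gave -0.69 (SE 0.22, adjusted p = 0.0842) in control and -0.81 (SE 0.27, adjusted p = 0.0883) in KO1 cells and did not pass. With the offset for GC content and length UPF2 did pass in edgeR, in control (-0.85, adjusted p = 0.00336) and in KO1 cells (-0.95, adjusted p = 0.0426). With DESeq2 it passed in KO1 cells (-0.78, adjusted p = 0.0340).

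SMG8 (ENSG00000167447, chromosome 17, 59209400 to 59215239), a regulator of the kinase that phosphorylates UPF1, went from 10.6 and 8.10 CPM to 15.8 and 24.1 CPM in KO1 cells. The change was 1.07 (SE 0.25, edgeR adjusted p = 0.0439), or 2.11-fold. It was 0.91 without replicate B of untreated (adjusted p = 0.0995) and 0.75 without replicate B of irradiated KO1 cells (adjusted p = 0.103). In control cells it went from 10.5 and 11.2 CPM to 17.0 and 20.5 CPM, a change of 0.79 (SE 0.23, adjusted p = 0.0618). SMG8 did pass there with DESeq2 (0.81, adjusted p = 0.0369) and in edgeR with the offset for GC content and length (0.72, adjusted p = 0.0175). Every irradiated library lay above every untreated one. A share of 11.3% of its exonic bases is also exonic in another annotated gene on the same strand.

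SMG5 (ENSG00000198952, chromosome 1, 156249224 to 156282825), which recruits decay enzymes to phosphorylated UPF1, went from 126 and 135 CPM to 87.4 and 82.9 CPM in KO1 cells. The change was -0.63 (SE 0.15, edgeR adjusted p = 0.0427). It stayed close to that size but did not pass without replicate A (-0.66, adjusted p = 0.0525) or B (-0.58, adjusted p = 0.251) of untreated KO1 cells, or without replicate B of irradiated KO1 cells (-0.58, adjusted p = 0.216). In control cells it went from 126 and 156 CPM to 106 and 93.9 CPM, a change of -0.50 (SE 0.17, adjusted p = 0.0977). With the offset for GC content and length SMG5 did pass there in edgeR (-0.45, adjusted p = 0.0414).

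SMG6 was the member whose changes with IR differed most between genotypes. It went from 15.5 and 14.2 CPM to 21.9 and 23.4 CPM in control cells, a change of 0.60 (SE 0.21, edgeR adjusted p = 0.113). In KO1 cells it went from 19.1 and 14.2 CPM to 14.4 and 19.2 CPM, for which no change was detectable (SE 0.23 on the log2 scale). Neither comparison passed. Of the exonic bases of SMG6, 24.7% are also exonic in genes on the opposite strand, mainly HIC1.

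The exosome core genes all had negative changes after IR, 9 of 9 in each genotype. Their medians were -0.28 in control and -0.42 in KO1 cells, against 0.02 and -0.01 over all genes tested. The 9 genes were measured in the same libraries, so their signs are not independent. Only EXOSC8 passed the test, in KO1 cells. EXOSC8 went from 43.9 and 43.1 CPM to 27.5 and 26.5 CPM there. Replicates lay close together in both groups. The change was -0.70 (SE 0.16, edgeR adjusted p = 0.0418), and it did not pass without replicate A (-0.68, adjusted p = 0.0787) or B (-0.71, adjusted p = 0.173) of untreated KO1 cells or without replicate B of irradiated KO1 cells (-0.67, adjusted p = 0.139). In control cells EXOSC8 went from 33.3 and 31.8 CPM to 28.3 and 25.6 CPM, a change of -0.28 (SE 0.20, adjusted p = 0.381). The table was counted with a strand setting not given in the sources used here, and 16.3% of the exonic bases of EXOSC8 overlap SUPT20H on the opposite strand.

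EXOSC4 had 44.03 and 28.5 CPM in irradiated control and 37.1 and 28.3 CPM in irradiated KO1 cells, changes of -0.64 (SE 0.22, edgeR adjusted p = 0.103) and -0.42 (SE 0.24, adjusted p = 0.260). EXOSC7 had 45.1 and 34.5 CPM in irradiated control and 38.3 and 29.9 CPM in irradiated KO1 cells, changes of -0.54 (SE 0.19, adjusted p = 0.117) and -0.57 (SE 0.20, adjusted p = 0.106). In both genes the irradiated control libraries lay below the untreated ones. For EXOSC4, 61.7% of exonic bases are also exonic in other annotated genes, so reads may have been assigned elsewhere or left out. EXOSC7 shares 13.6% with CLEC3B.

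EXOSC1 (ENSG00000171311, chromosome 10, 97435909 to 97446017), a cap subunit of the ring, went from 39.5 and 36.1 CPM to 33.9 and 27.2 CPM in control cells and from 33.0 and 35.5 CPM to 35.6 and 27.9 CPM in KO1 cells. Its changes were -0.32 (SE 0.20) and -0.13 (SE 0.18). The nucleases gave changes of both signs. EXOSC10 changed by 0.18 and 0.33, DIS3 by 0.23 and 0.11, and DIS3L by 0.13 and -0.11 in control and KO1 cells, and none passed the test. RNPS1 changed by -0.36 (SE 0.16, edgeR adjusted p = 0.179) and -0.27 (SE 0.15, adjusted p = 0.258). DCP1A gave -0.39 (SE 0.17, adjusted p = 0.190) and -0.50 (SE 0.19, adjusted p = 0.120). PELO changed by -0.09 (95% interval -0.47 to 0.30) and 0.03 (-0.32 to 0.37).

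**Figure D3:**
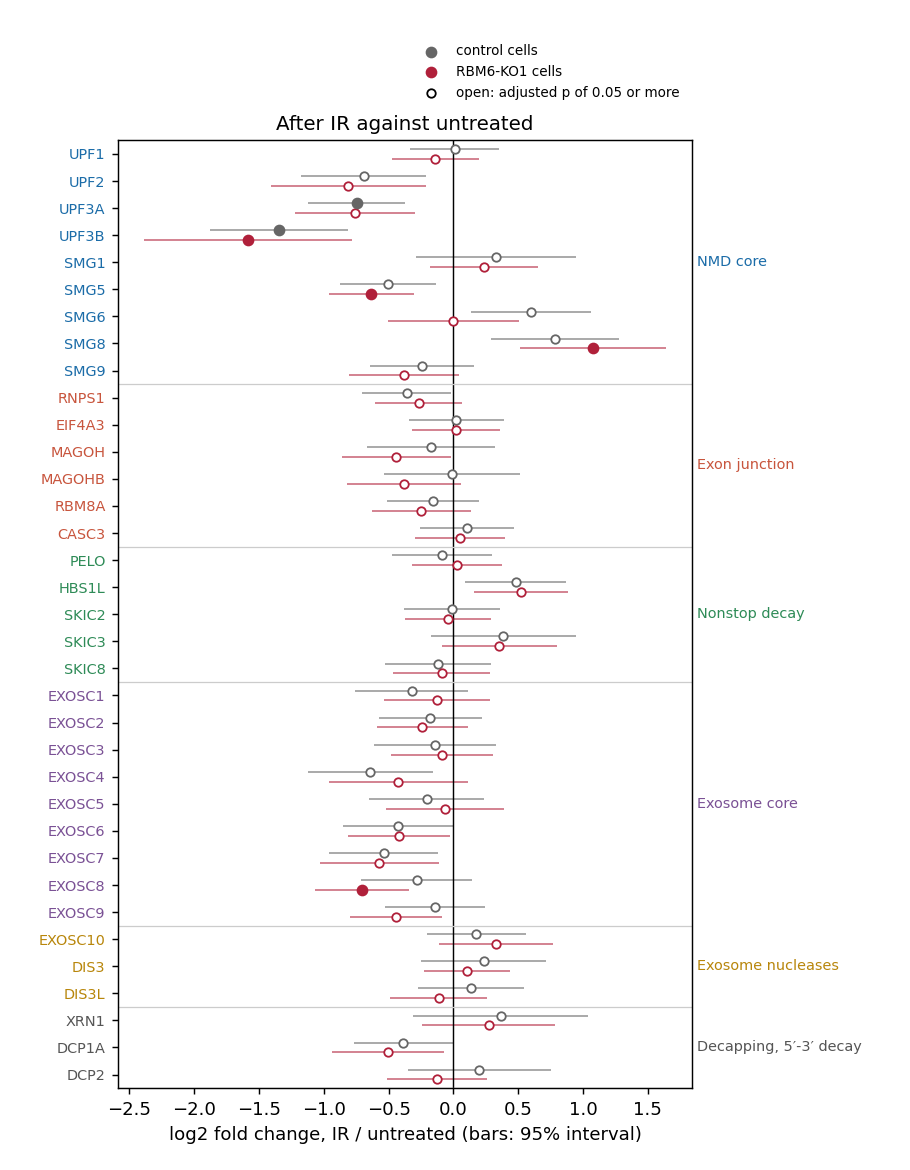
Log2 fold change after IR over untreated cells for the 35 members, grouped by role, in control (grey) and RBM6-KO1 (red) cells, with bars for 95% intervals and filled points for an adjusted p under 0.05. UPF3B is the lowest in both genotypes, SMG8 the highest, and the 9 exosome core genes all lie left of 0.

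Whether the response to IR differed between genotypes was tested as an interaction over all 8 libraries. With edgeR 0 of the 35 members passed, and 0 had an unadjusted p under 0.05. Over the 16549 genes tested, 0% passed and 306 genes had an unadjusted p under 0.05. With DESeq2 0 genes passed and 164 had an unadjusted p under 0.05. The member with the smallest p was SMG6 (-0.59, SE 0.30, unadjusted p = 0.0727 from edgeR), followed by EXOSC8 (-0.41, SE 0.21, unadjusted p = 0.0786). For UPF3B the difference was -0.23 (95% interval -1.35 to 0.88), for SMG8 0.30 (-0.45 to 1.04) and for SMG5 -0.12 (-0.58 to 0.33). The calls made in KO1 cells alone, or in control cells alone, were therefore not shown to be particular to that genotype. In simulated counts of this design, 10 of 200 genes with a log2 difference of 1 were recovered, so a difference of that size would mostly have been missed.

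Levels can be compared between genes only per length, here as counts per kilobase of exon scaled to the same total in every library. In untreated control cells EXOSC4 had the highest level, 117 ± 7.32 (SD, n = 2), and XRN1 the lowest, 3.14, a 37.3-fold range. With the length of the longest transcript in place of all exons RNPS1 was the highest at 141, EXOSC4 stood at 116, and the range down to XRN1 was 49.7-fold. The median of the members was 24.7, against 9.74 over 15444 tested genes. After EXOSC4 came SMG5 (77.0), RNPS1 (71.7), MAGOH (50.6), RBM8A (49.3), UPF1 (48.2) and SKIC2 (40.2). PELO stood at 29.7 and HBS1L at 11.3. The lower end was SKIC3 (5.78), DCP2 (5.09), SMG6 (4.09), SMG1 (4.02) and XRN1. In 20 of the 34 pairs of neighbours in this order the values of both libraries overlapped. The exosome core covered a 16.2-fold range from EXOSC8 (7.22) to EXOSC4, and the 3 nucleases covered a 1.95-fold range. With the longest transcript these ranges were 9.43-fold, from EXOSC3 (12.3) to EXOSC4, and 4.07-fold. MAGOH stood at 50.6 and its paralog MAGOHB at 7.56.

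**Figure D4:**
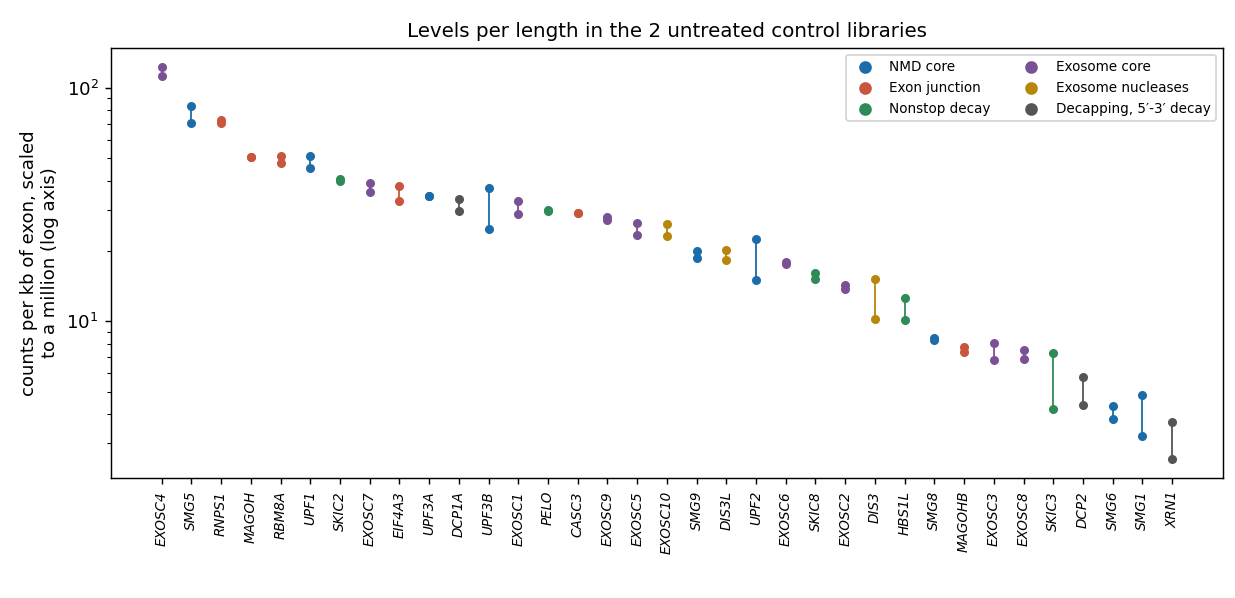
Levels per length of the 35 members in the 2 untreated control libraries (log axis, counts per kilobase of exon scaled to an equal total), ordered by mean and coloured by role, with a line joining both libraries of a gene. With this length EXOSC4 is the highest at 117 and XRN1 the lowest at 3.14, whereas with the longest transcript RNPS1 is the highest. In 20 of 34 pairs of neighbours the libraries overlap.

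RBM6 is known to bind the motif CTCTGAA, written here as DNA. The sense strand of the longest annotated transcript held it in 13 of the 35 members (37.1%), against 33.4% of 15444 tested genes. The members carried 0.0916 copies per kilobase and all genes 0.119. Of the members that passed a test, UPF2, SMG8 and EXOSC8 each held 1 copy, whereas UPF3A, UPF3B and SMG5 held none. The longest transcript of APBB1 held none, and introns were not searched. The study does report sites with this motif in Fe65, without saying whether they lie in exons or introns. It also found RBM6 bound to Fe65 RNA by immunoprecipitation, with and without UV cross-linking.

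Genes of neighbouring pathways, in lists of the same kind, were counted in the same tests. In untreated KO1 against control cells 6.12% of all 15556 genes passed, 371 as higher and 581 as lower. In untreated KO1 against control cells, 1 of 18 genes of ribosome rescue and quality control rose, NEMF (0.83, SE 0.19), which helps to extract stalled peptides. Of 22 other decapping and 5′-3′ decay genes 1 rose, TUT7 (0.93, SE 0.18), a uridylyltransferase. Of 18 host transcripts known as NMD targets 3 rose, SLC7A11 (1.14, SE 0.19), GADD45B (0.79, SE 0.19) and BAG1 (0.58, SE 0.16), with a median of 0.07 over the list. None fell, and 0 of 15 tested NMD and exon junction factors outside the members, 0 of 12 exosome cofactors and 0 of 20 deadenylation genes passed the edgeR test. In these lists 1, 4 and 3 genes had an unadjusted p under 0.05, against 2867 of all 15556 genes tested. After IR, 0 genes of these lists passed between genotypes. With edgeR, 2 of the ribosome rescue list, 1 of the exosome cofactors, 1 of the deadenylation genes, 1 of the other decapping genes and 6 of the NMD targets had an unadjusted p under 0.05. Over all genes tested after IR, 1731 of 15587 did.

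With IR, 3 of 20 deadenylation genes rose in each genotype, where 2.81% of all genes rose in control and 2.44% in KO1 cells. No list was tested as a whole. BTG2, an antiproliferative gene that recruits the deadenylase, changed by 2.02 (SE 0.18) in control and 1.98 (SE 0.17) in KO1 cells, and its relative TOB1 by 1.31 (SE 0.23) and 1.45 (SE 0.22). The scaffold CNOT1 rose in control cells (0.85, SE 0.20), and BTG1 rose in KO1 cells (0.72, SE 0.16). Of the ribosome rescue genes, the helicase ASCC3 rose by 1.08 (SE 0.24) in control and 0.93 (SE 0.19) in KO1 cells, and NEMF fell by 1.204 (SE 0.20) and 1.56 (SE 0.34). TCF25 fell in control cells (-0.68, SE 0.17). Of the 15 tested NMD and exon junction factors outside the members, the junction protein PNN fell by 0.85 (SE 0.17) and 1.12 (SE 0.22), the NMD helicase DHX34 in control cells (-0.64, SE 0.17) and SRRM1 in KO1 cells (-0.75, SE 0.18).

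Among the 18 NMD targets, 3 fell and 1 rose with IR in control cells, and 3 fell in KO1 cells, where 2.91% and 3.23% of all genes fell. ATF4, a stress-induced transcription factor, changed by -0.67 (SE 0.17) in control and -0.65 (SE 0.16) in KO1 cells. UPP1 (-0.90, SE 0.18) and ZFAS1 (-0.86, SE 0.21) fell and GADD45A (0.66, SE 0.16) rose in control cells. SLC7A11 (-0.71, SE 0.15) and SNHG1 (-0.64, SE 0.15) fell in KO1 cells. The list medians were -0.38 and -0.29, against 0.02 and -0.01 over all genes tested. As background, several of these genes also respond to stress through other routes. None of the exosome cofactors or of the other decapping genes passed the edgeR test with IR in either genotype. Of them 0 and 6 had an unadjusted p under 0.05 in control cells and 2 and 5 in KO1 cells. Over all genes tested, 3918 of 15412 did in control and 4613 of 15598 in KO1 cells.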

How the data were processed

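RNA-seq libraries (poly(A) mRNA, paired reads of 150 bases) were analysed from 8 samples in 4 groups of 2. The authors deposited whole-number counts per Ensembl gene without normalization. The submitters' processing notes name STAR, DESeq2 and hg38, with no versions, and the counting tool, annotation and strand setting are not given in the sources used here. Of 58233 identifiers, 57392 were matched to GENCODE release 44 for names, positions, lengths and GC content.

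Counts were tested in R 4.3.3 with edgeR 4.0.16 (quasi-likelihood test, TMM normalization, filterByExpr, two-sided), each comparison on its own 4 libraries and the interaction on all 8. P-values were adjusted over all genes tested by the Benjamini-Hochberg method, and the threshold was 0.05. The SE is the size of the log2 fold change divided by the square root of F, and 95% intervals use the t distribution of the moderated fit. No gene list was tested as a set. Library totals of 15355281 to 29832009 counts set the precision. Tests were checked on simulated counts with 200 changed genes. In untreated KO1 against control, 7 were recovered at a log2 change of 0.5, 134 at 1 and 180 at 2. In IR against untreated control cells 5, 101 and 189 were recovered at the same sizes.

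The members, the other gene lists and the tests were chosen with earlier results of these data known. Values in all 8 libraries were given for members past the test in any comparison, the 2 with the smallest p in each direction of each comparison, PELO, HBS1L, RNPS1, UPF1, MAGOH and MAGOHB. The alternatives were DESeq2 size factors, upper quartile scaling, the Wald test of DESeq2 1.42.0, no filter, at least 10 counts in every library, all 8 libraries in 1 fit, a spline offset for GC content and length, a replicate block with and without that offset, and each library left out. Transcript isoforms were not analysed here, and 1 marker gene is not reported here.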

Additional observations from a re-analysis of the deposited data

How the results depend on the processing

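The number of members past the test was 1 for untreated KO1 against control, 0 for irradiated KO1 against control, 2 for IR in control cells, 4 for IR in KO1 cells and 0 for the interaction. With all 8 libraries in 1 fit it was 0 for untreated KO1 against control and 0 for IR in control cells. With the GC and length offset it was 9 for IR in control cells and 10 for IR in KO1 cells. With DESeq2 and with no filter it was 7 for IR in KO1 cells. With each library left out in turn it ranged from 0 to 3 for untreated KO1 against control, stayed at 0 for irradiated KO1 against control, and ranged from 0 to 14 for IR in control and from 1 to 9 for IR in KO1 cells. A fit without 1 library leaves a lone library in a group, which is assumed to vary like the others. The interaction gave 0 members under each alternative run. No value named above changed sign where it had passed the test. Of the 97 alternative values of passing members, 78 stayed past the test and 19 did not, and of 2353 values of members that had not passed, 94 did.

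The replicate letters were tested as a block. Differences of A from B correlated at 0.08 between untreated genotypes and 0.35 between irradiated genotypes, but at -0.18 and -0.26 between untreated and irradiated cells of control and KO1. The labels tie no library to another by letter, so the letters were not taken as pairs by design. With the replicate block, 4 members passed between irradiated KO1 and control cells (SKIC3 and UPF3A higher, SMG6 and UPF1 lower) and 3 for IR in KO1 cells, where SMG5 (adjusted p = 0.139) and EXOSC8 (adjusted p = 0.103) did not. With the replicate block and the GC and length offset together, 5 passed between irradiated genotypes, 7 for IR in control and 7 for IR in KO1 cells, where SMG5 (adjusted p = 0.0617) did not. Crossing the letters, chosen after the data were examined, gave 12 members for IR in control and 20 for IR in KO1 cells.

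Over all genes, the number past the test was 952 for untreated KO1 against control and ranged from 510 (all 8 libraries together) to 1892 (block and offset). Between irradiated genotypes it was 189 and ranged from 71 (at least 10 counts) to 2594 (block and offset). For IR in control cells it was 881, and ranged from 290 (without replicate B of untreated control) to 4665 (without replicate A of irradiated control). For IR in KO1 cells it was 884, and ranged from 364 (without replicate B of untreated KO1) to 6926 (letters crossed). With no filter it was 2074 and 2800.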
